A study of Mus musculus with 24 samples.

Results

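The interaction of genotype and virus was measured in the 16 injected-heart libraries of a series of 24, in a 2 by 2 design with 4 libraries in each of 4 groups. It asks whether active YAP moved a transcript by a different amount in hearts that lacked Xinβ than in hearts that had it. KO/GFP were Xinβ KO hearts injected with AAV9-GFP, KO/aYAP were Xinβ KO hearts given AAV9-aYAP(S127A), and WT/GFP and WT/aYAP were wild-type littermate hearts given the same viruses. All mice were injected at postnatal day 1 and their hearts were taken at postnatal day 7.5, so every control heart had also received a virus. The KO allele, in which a LacZ-Neo cassette replaces part of the gene, is germline and KO pups without added YAP die before weaning, and all KO hearts here came from pups alive at postnatal day 7.5. The troponin T promoter of the virus directs a FLAG-tagged human YAP to cardiomyocytes, while the hearts were sequenced as whole tissue, labelled as apex, from both sexes.

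The interaction of a gene is (KO/aYAP minus KO/GFP) minus (WT/aYAP minus WT/GFP), computed on log2(CPM + 1) from the 4 group means, where CPM is the read count scaled to library size. A positive value means that the aYAP minus GFP difference was more positive in KO than in WT hearts, a negative value that it was more negative, and 0 that it was equal. The value is the same whether it is read as the effect of virus between genotypes or as the effect of genotype between viruses. Adding 1 CPM shrinks the values of low genes. Genes above 1 CPM in 8 or more of the 16 libraries were tested with limma, and a gene is called when its p-value, adjusted over all tested genes by the Benjamini-Hochberg method, is under 0.05.

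Xinβ, the product of Xirp2, is an actin-binding protein of the intercalated disc, the junction that couples cardiomyocytes end to end. YAP is a transcriptional co-activator that works through TEAD factors. Kinases of the Hippo pathway phosphorylate it and keep it out of the nucleus, and the S127A form lacks a main inhibitory site. In the neonatal heart, YAP is known for driving cardiomyocyte proliferation, which normally ends soon after birth.

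The libraries held between 15015038 and 19444404 reads on 15327 listed genes. Xirp2 was at 0.497, 0.327, 0.176 and 0.220 CPM in KO/GFP replicates 1 to 4, 0.789, 0.117, 0.972 and 0 in KO/aYAP, 103, 99.0, 115 and 149 in WT/GFP, with 93.8, 90.5, 81.6 and 56.0 in WT/aYAP. Every KO library was under 1 CPM and every WT library over 50, as labelled. Its interaction, in which the KO terms sit near the floor, was 0.65 (SE 0.31, limma adjusted p = 0.214) and was not called. Both Xist, of female cells, and Ddx3y, of the Y chromosome, were over limits chosen after the values were seen (50 CPM of Xist and 5 CPM of Ddx3y) in 4 libraries, namely WT/GFP replicate 3 and WT/aYAP replicates 2, 3 and 4 (69.5 to 747 CPM of Xist and 8.61 to 61.5 CPM of Ddx3y), so these did not match a single sex. Below that limit, WT/aYAP replicate 1 held 25.6 CPM of Xist with 60.7 of Ddx3y and KO/GFP replicate 3 held 15.5 with 51.6, where the other libraries high in Ddx3y held 1.43 to 3.97 CPM of Xist. All 4 WT/aYAP libraries thus held at least 25.6 CPM of Xist together with at least 8.61 CPM of Ddx3y. Of the other libraries, KO/GFP replicate 2, KO/aYAP replicates 3 and 4 and WT/GFP replicate 4 were high in Xist alone. The 12 cardiomyocyte markers summed to between 70280 and 84640 CPM in KO/GFP, 69950 and 74070 in KO/aYAP, 64080 and 80400 in WT/GFP, with 64890 and 80830 as the bounds in WT/aYAP, and none was at 0 in any group.

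Of 14597 genes tested, 1104 were called for the interaction, which is 7.56% of them. The calls were even in direction, with 554 positive (3.8% of tested genes) and 550 negative (3.77%), and 3455 genes had an unadjusted p under 0.05. The values of the called genes ran from -4.40 to 4.28, with a median size of 0.917 and a median SE of 0.214, and 453 were at least 1 in size. Over all tested genes the median was 0.014. With every library rescaled to the same sum, the median of all genes was 0.122 and the calls split into 884 positive and 345 negative, so directions near 0 depend on the scaling. The number of calls lay between 625 and 1467 when 1 library was left out. It was 28, of which 27 were among the 1104, without the 4 libraries that held both Xist and Ddx3y, a fit on 12 libraries with a single WT/aYAP library, which itself held 25.6 CPM of Xist. In that fit no gene list described below had more than 1 call, while the list medians were 0.786 for fibroblast, 1.48 for macrophage and -1.59 for neutrophil markers, -0.839 for glucocorticoid-responsive genes and 0.915 for mitotic genes. Other list medians turned sign in that fit, to 0.268 for interferon-stimulated, -0.018 for intercalated disc and 0.125 for epicardial genes, or moved far, to 0.156 for sterol and lipid synthesis, -0.117 for cell death and -0.319 for calcium handling genes. What part these 4 libraries have in the calls was not tested further. The fits without KO/GFP replicate 1 (634 calls), KO/aYAP replicate 1 (668) or 2 (729), WT/GFP replicate 2 (644), and WT/aYAP replicate 2 (661), 3 (668) or 4 (625) each moved the count by more than 1.5 times.

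**Figure D1:**
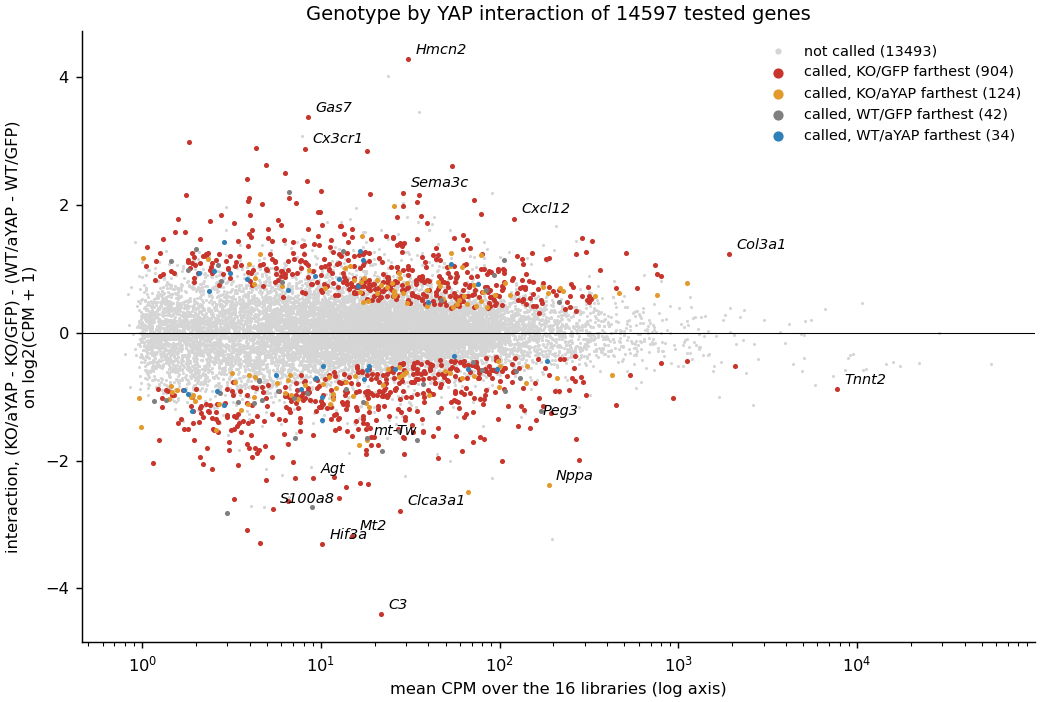
Each point is a tested gene, with its mean CPM over the 16 libraries on a log axis and its interaction on log2(CPM + 1) on the vertical axis. Grey points are the genes not called and coloured points the 1104 called genes, coloured by the group farthest from the other 3. Hmcn2 lies highest at 4.28, C3 lowest at -4.40, and most coloured points are those in which KO/GFP stood farthest.

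**Figure D2:**
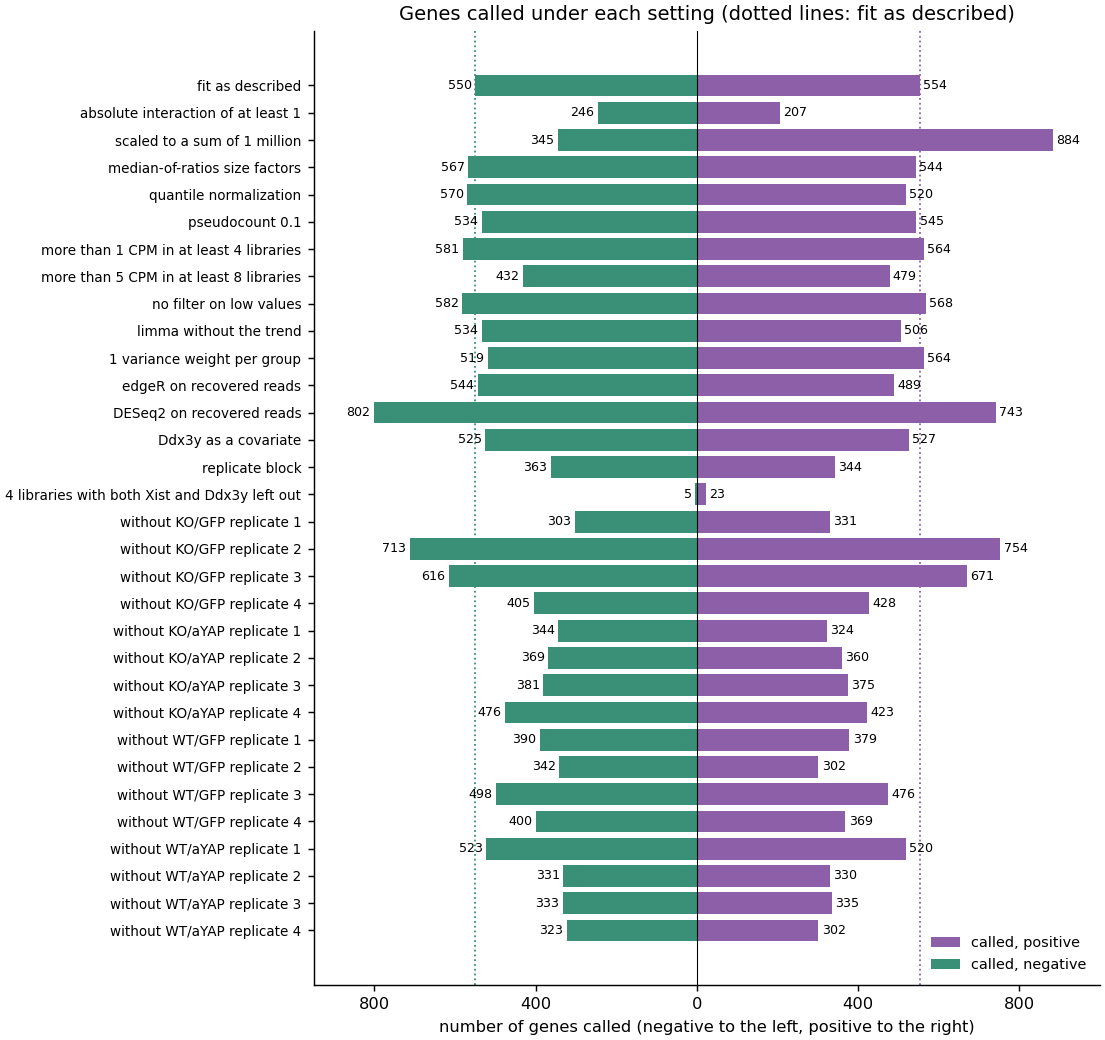
Bars give the number of genes called with a positive interaction to the right and with a negative interaction to the left under each setting, with the fit as described at the top (554 and 550) and dotted lines at its counts. Counts without 1 library run from 625 in all without WT/aYAP replicate 4 to 1467 without KO/GFP replicate 2, and the fit without 4 libraries has 28.

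KO/GFP was the group that stood away in most of these genes. It lay farthest from the mean of the other 3 group means in 904 of the 1104 called genes (81.9%), against 46.3% of all tested genes. KO/aYAP was farthest in 124, WT/GFP in 42 and WT/aYAP in 34. In the called genes KO/GFP lay a median of 0.585 from the mean of the other 3, on the log2 scale, and those 3 groups spanned a median of 0.292. Over all tested genes the same 2 distances were 0.182 and 0.205. All 4 KO/GFP values lay outside the range of the other 12 libraries for 939 tested genes (6.43%), which included 539 of the called genes, 276 above and 263 below (of all tested genes, 3.19% were above and 3.25% below). For KO/aYAP, WT/GFP and WT/aYAP the share of tested genes was 0.589%, 0.137% and 0.349%. KO/GFP was also the group with the widest spread, a median SD of 0.242 between libraries against 0.171 to 0.179 in the others. Leaving out a KO/GFP library loosens this count, since fewer values must then lie outside the range. The number of genes in which KO/GFP stood apart was 1027, 1830, 1554 and 1070 without KO/GFP replicates 1 to 4.

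**Figure D3:**
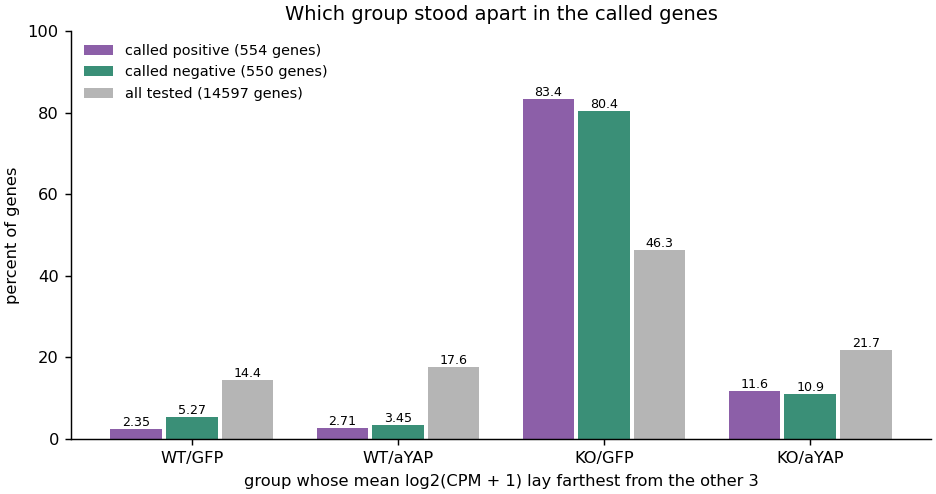
Bars give the percent of genes for which each group's mean log2(CPM + 1) lay farthest from the other 3 groups, for genes called positive, genes called negative and all tested genes. KO/GFP was farthest in 83.4% of the positive and 80.4% of the negative calls, against 46.3% of all tested genes.

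Among the 12 positive calls with the smallest p-values, KO/GFP lay below all other libraries in each. Cxcl12, a chemokine (GRCm38 chromosome 6, 117168535 to 117181367, ENSMUSG00000061353), was at 61.1, 67.5, 53.2 and 59.8 CPM in KO/GFP replicates 1 to 4, 187, 167, 163 and 128 in KO/aYAP, 144, 158, 134 and 151 in WT/GFP, with 102, 116, 108 and 121 in WT/aYAP. KO/GFP lay below the other 12 libraries, and KO/aYAP overlapped WT/GFP. Its interaction was 1.78 (SE 0.15, limma adjusted p = 1.3e-05). Sema3c, a secreted guidance cue of the semaphorin family (chromosome 5, 17574281 to 17730268, ENSMUSG00000028780), was at 8.505, 9.94, 12.9 and 7.93 CPM in KO/GFP replicates 1 to 4, 44.7, 41.2, 40.9 and 42.9 in KO/aYAP, 28.4, 36.0, 33.8 and 36.3 in WT/GFP, with 33.1, 31.7, 24.4 and 30.6 in WT/aYAP. Here KO/GFP was below and KO/aYAP above all WT libraries, with an interaction of 2.19 (SE 0.19, limma adjusted p = 1.3e-05). Hmcn2, an extracellular matrix protein of the hemicentin family (chromosome 2, 31314415 to 31460738, ENSMUSG00000055632), had the largest value of any called gene, 4.28 (SE 0.42, limma adjusted p = 3.89e-05). It was at 1.61, 4.84, 5.03 and 0.771 CPM in KO/GFP replicates 1 to 4, 47.3, 41.5, 55.6 and 60.3 in KO/aYAP, 37.1, 34.2, 50.5 and 38.5 in WT/GFP, with 23.3, 31.2, 31.4 and 31.8 in WT/aYAP, so that KO/GFP did not reach the range of the other groups. Dpt, or dermatopontin, a matrix protein made by fibroblasts (chromosome 1, 164796644 to 164824266, ENSMUSG00000026574), was at 70.5, 90.1, 79.0 and 72.5 CPM in KO/GFP replicates 1 to 4, 198, 174, 186 and 178 in KO/aYAP, 146, 183, 177 and 184 in WT/GFP, with 163, 161, 168 and 192 in WT/aYAP. The KO/GFP libraries were again the lowest and the other 3 groups overlapped, and the interaction was 1.24 (SE 0.14, limma adjusted p = 0.000106).

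Cx3cr1, the fractalkine receptor of macrophages and microglia (chromosome 9, 119901616 to 120069879, ENSMUSG00000052336), was at 0.497, 0.785, 0.468 and 0.606 CPM in KO/GFP replicates 1 to 4, 8.18, 10.4, 12.2 and 9.44 in KO/aYAP, 17.2, 9.37, 9.24 and 10.2 in WT/GFP, with 11.4, 10.8, 11.5 and 8.14 in WT/aYAP. KO/GFP was under 1 CPM in each library, where the 3 other groups overlapped near 10 CPM, and the interaction was 2.88 (SE 0.26, limma adjusted p = 1.6e-05). Fcrls, a scavenger receptor-like gene of macrophages, had means of 0.796 ± 0.527, 8.58 ± 2.62, 8.08 ± 0.826 and 7.66 ± 1.14 CPM (SD, n = 4) in KO/GFP, KO/aYAP, WT/GFP and WT/aYAP and an interaction of 2.49 (SE 0.30, limma adjusted p = 0.000306). Ighm, the heavy chain of IgM made by B cells, had means of 0.286 ± 0.387, 4.71 ± 1.05, 5.67 ± 0.945 and 4.74 ± 1.01 CPM (SD, n = 4) in KO/GFP, KO/aYAP, WT/GFP and WT/aYAP, with an interaction of 2.40 (SE 0.28, limma adjusted p = 0.000224). The other genes of this group were Ccn3, a matricellular protein (2.16), Pcsk6, a proprotein convertase (2.07), Cdh23, a cadherin (2.63), Tuba8, an alpha-tubulin (2.60), and Rassf3, a RAS-association domain protein (0.99). All were called in each of the 16 fits without 1 library, with KO/GFP below all other libraries. Nr4a3, an orphan nuclear receptor, had an interaction of 2.85 (SE 0.54, limma adjusted p = 0.00544), and Gas7 of 3.37 (SE 0.85, limma adjusted p = 0.0262). In Gas7, KO/GFP and WT/aYAP were both low, at means of 2.23 and 2.96 CPM. The other groups were split, with KO/aYAP replicates 1 and 2 at 5.53 and 4.5 CPM, WT/GFP replicates 2 and 3 at 4.46 and 2.45, and the remaining libraries of both groups at 22.9 to 27.3. The Gas7 call was lost in 2 of the 16 fits without 1 library.

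The 12 negative calls with the smallest p-values were, apart from mt-Tw, genes with their highest mean in KO/GFP and that group the farthest. Clca3a1, a member of the calcium-activated chloride channel regulator family with close paralogs beside it (chromosome 3, 144729677 to 144760977, ENSMUSG00000056025), ranked first of all genes by p-value. It was at 73.2, 49.8, 64.4 and 68.0 CPM in KO/GFP replicates 1 to 4, 8.68, 10.5, 8.92 and 9.38 in KO/aYAP, 18.2, 20.1, 15.2 and 17.3 in WT/GFP, with 16.2, 19.8, 21.4 and 21.7 in WT/aYAP. KO/GFP lay above and KO/aYAP below the 8 WT libraries, and the interaction was -2.78 (SE 0.18, limma adjusted p = 7.07e-07). Adhfe1, a mitochondrial hydroxyacid-oxoacid transhydrogenase (chromosome 1, 9547948 to 9580673, ENSMUSG00000025911), was at 71.2, 57.1, 65.8 and 73.6 CPM in KO/GFP replicates 1 to 4, 26.2, 25.5, 21.6 and 28.0 in KO/aYAP, 29.2, 22.8, 26.9 and 28.8 in WT/GFP, with 34.1, 31.8, 28.3 and 28.4 in WT/aYAP. KO/GFP lay above all other libraries, and the interaction was -1.55 (SE 0.16, limma adjusted p = 5.04e-05). Agt, or angiotensinogen, the precursor of angiotensin (chromosome 8, 124556534 to 124569706, ENSMUSG00000031980), was at 24.1, 16.9, 22.0 and 26.5 CPM in KO/GFP replicates 1 to 4, 5.19, 6.66, 1.94 and 4.18 in KO/aYAP, 3.53, 3.68, 4.89 and 6.03 in WT/GFP, with 4.74, 4.94, 4.98 and 4.99 in WT/aYAP. The 12 libraries outside KO/GFP lay within 1.94 to 6.66 CPM, and the interaction was -2.27 (SE 0.33, limma adjusted p = 0.00123). Inhbb, the activin beta B subunit, had means of 10.8 ± 3.38, 3.47 ± 0.678, 1.55 ± 0.244 and 3.87 ± 0.723 CPM (SD, n = 4) in KO/GFP, KO/aYAP, WT/GFP and WT/aYAP, and an interaction of -2.30 (SE 0.27, limma adjusted p = 0.000211). The rest were Rbp7, a retinol-binding protein (-1.64), Plcd3, a phospholipase C (-1.55), Mgst1, a microsomal glutathione S-transferase (-1.74), Ncam1, a neural adhesion molecule (-1.08), Tmem176a (-1.21), Isoc2a (-0.98) and Aldh1l1, a folate enzyme at a mean of only 2.33 CPM in KO/GFP (-2.04). Aldh1l1 fell under the filter on low values in 8 of the 16 fits without 1 library and was called in the 8 that tested it, and the others were called in all 16.

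C3, the central complement component (chromosome 17, 57203970 to 57228136, ENSMUSG00000024164), had the lowest value of any called gene, with an unstable call. It was at 109, 1.96, 14.9 and 165 CPM in KO/GFP replicates 1 to 4, 1.01, 0.993, 2.92 and 3.95 in KO/aYAP, 6.75, 6.08, 0.815 and 2.08 in WT/GFP, with 7.54, 6.93, 11.4 and 5.58 in WT/aYAP. KO/GFP replicates 1 and 4 were high, replicate 3 was somewhat above the other groups, and replicate 2 lay within them. Its interaction was -4.40 (SE 1.28, limma adjusted p = 0.046), and the call held in 2 of the 16 fits without 1 library, with adjusted p-values up to 0.0913. Slc15a2, a peptide transporter, had means of 19.01 ± 12.1, 8.27 ± 4.98, 1.69 ± 1.51 and 6.64 ± 1.61 CPM (SD, n = 4) in KO/GFP, KO/aYAP, WT/GFP and WT/aYAP, so that WT/GFP was the group farthest from the rest, and an interaction of -2.73 (SE 0.69, limma adjusted p = 0.0262), called in 11 of the 16 fits.

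**Figure D4:**
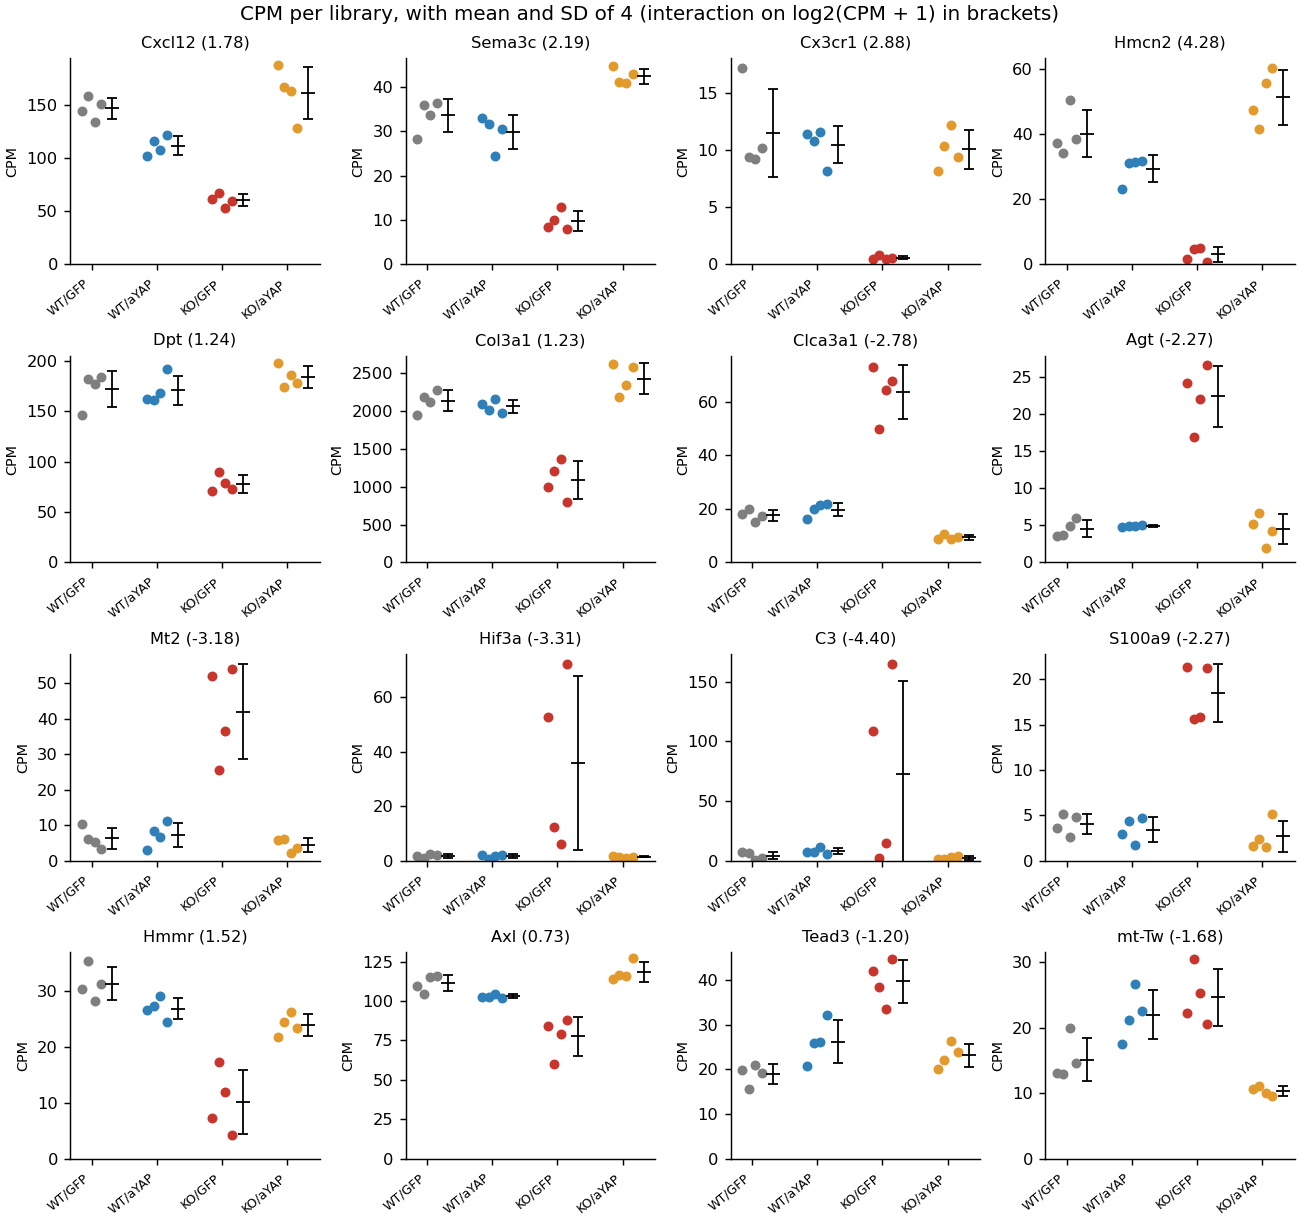
Dots are CPM in single libraries of the 4 groups, on linear axes that start at 0, for 16 genes, and the bars beside them are the mean and SD of 4 libraries, with the lower bar of C3 running below the axis. The number in brackets is the interaction on log2(CPM + 1). KO/GFP has the highest or the lowest mean in all 16 panels, and in mt-Tw it is KO/aYAP that lies farthest from the other groups.

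Genes of fibroblasts and of the matrix they make were called positive, with 8 of 12 fibroblast markers called (66.7%, against 7.56% of all tested genes), all positive. The list had a median interaction of 0.90 against 0.014 over all tested genes, and it had 7 to 9 calls with 1 library left out. Beside Dpt, these were Col1a1, Col1a2 and Col3a1, Dcn (decorin), Lum (lumican), the collagen receptor Ddr2, and Mfap5 of the microfibrils, at 0.51 to 1.24. Col3a1, a fibrillar collagen (chromosome 1, 45311538 to 45349706, ENSMUSG00000026043), was at 996, 1208, 1364 and 791 CPM in KO/GFP replicates 1 to 4, 2610.5, 2181, 2335 and 2572 in KO/aYAP, 1945, 2186, 2120.1 and 2276 in WT/GFP, with 2086, 2010.2, 2155 and 1973 in WT/aYAP. KO/GFP lay below the other 12 libraries, and the interaction was 1.23 (SE 0.19, limma adjusted p = 0.00154). The summed CPM of the 12 markers was 2627 to 3904 in KO/GFP, 5434 to 6508 in KO/aYAP, 5016 to 5917 in WT/GFP and 5172 to 5630 in WT/aYAP. In bulk tissue, fewer cells of a type and less RNA per cell cannot be told apart.

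In the list of collagens, laminins and matrix proteins 14 of 32 were called (43.8%, against 7.56% of all tested genes), 13 positive and 1 negative, with a median of 0.56. It shares Col1a1, Col1a2, Col3a1, Dcn and Lum with the fibroblast markers. Col15a1, a basement membrane collagen, had means of 136 ± 37.4, 391.5 ± 60.3, 313 ± 51.8 and 324 ± 39.1 CPM (SD, n = 4) in KO/GFP, KO/aYAP, WT/GFP and WT/aYAP and an interaction of 1.49 (SE 0.24, limma adjusted p = 0.00189). Col6a3, a chain of the beaded-filament collagen VI, had an interaction of 1.21 (SE 0.18, limma adjusted p = 0.00128), and Col6a1 and Col6a2 were at 0.72 and 0.55. Spp1, or osteopontin, a secreted matrix protein of injury and macrophages, was the negative call, at -2.05. The most abundant member, Col4a1 of the basement membrane, was at 0.40 and was not called. Between 9 and 17 members were called with 1 library left out, fewest without KO/aYAP replicate 1 and most without KO/GFP replicate 3.

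Immune cell genes were called in both directions. Of 11 macrophage markers tested, 4 were called (36.4%, against 7.56% of all tested genes), all positive, with a list median of 1.3. Of the 7 not called 2 were negative, the lowest at -0.84. The 4 called markers were Cx3cr1, Csf1r (the CSF1 receptor), Adgre1 (F4/80) and C1qa (a complement C1q chain). Csf1r was at 13.3, 20.2, 11.2 and 16.9 CPM in KO/GFP replicates 1 to 4, 28.2, 33.0, 36.3 and 33.9 in KO/aYAP, 38.7, 40.9, 27.2 and 34.9 in WT/GFP, with 29.7, 27.2, 27.8 and 25.8 in WT/aYAP. KO/GFP was the lowest group without overlap, and the interaction was 1.40 (SE 0.22, limma adjusted p = 0.0018). Adgre1 had means of 1.83 ± 1.17, 6.77 ± 2.02, 6.12 ± 0.965 and 4.04 ± 0.834 CPM (SD, n = 4) in KO/GFP, KO/aYAP, WT/GFP and WT/aYAP and an interaction of 2.02 (SE 0.37, limma adjusted p = 0.00426), and C1qa had an interaction of 1.62 (SE 0.38, limma adjusted p = 0.020). Lyz2, lysozyme, the most abundant marker of the list, had means of 28.2 ± 3.83, 30.1 ± 8.57, 37.0 ± 13.7 and 24.2 ± 4.48 CPM (SD, n = 4) in KO/GFP, KO/aYAP, WT/GFP and WT/aYAP and was not called at 0.59 (SE 0.34, limma adjusted p = 0.305). The 12 markers summed to 69.7 to 149 CPM in KO/GFP, 137 to 184 in KO/aYAP, 141 to 230 in WT/GFP and 129 to 140.0 in WT/aYAP. Of the 2 lymphocyte-list genes tested, Ptprc (CD45, on all leukocytes) was called at 1.16 (SE 0.32, limma adjusted p = 0.0369), in 6 of the 16 fits without 1 library, and the 5 listed genes summed to 2.75 to 5.28 CPM in KO/GFP and 8.35 to 13.1 in the other groups.

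Neutrophil genes went the other way. Of 6 tested markers 5 were called (83.3%, against 7.56% of all tested genes), all negative, with a median of -1.59, namely S100a8, S100a9, Ngp, Ltf and Mmp9. S100a9, a subunit of the alarmin calprotectin (chromosome 3, 90692632 to 90695721, ENSMUSG00000056071), was at 21.4, 15.6, 15.8 and 21.3 CPM in KO/GFP replicates 1 to 4, 1.64, 2.34, 1.54 and 5.15 in KO/aYAP, 3.59, 5.13, 2.61 and 4.77 in WT/GFP, with 2.91, 4.34, 1.66 and 4.66 in WT/aYAP. KO/GFP lay above every other library, and the interaction was -2.27 (SE 0.40, limma adjusted p = 0.0036). S100a8, its partner, had means of 15.01 ± 3.71, 2.05 ± 1.94, 2.02 ± 0.771 and 2.41 ± 0.842 CPM (SD, n = 4) in KO/GFP, KO/aYAP, WT/GFP and WT/aYAP and an interaction of -2.75 (SE 0.49, limma adjusted p = 0.00365). The granule genes Ngp and Ltf had interactions of -1.51 (SE 0.41, limma adjusted p = 0.0359) and -1.67 (SE 0.45, limma adjusted p = 0.0341), at means in KO/GFP of only 5.46 and 4.54 CPM, and were called in 5 and 6 of the 16 fits without 1 library. The 9 listed markers summed to 39.4 to 76.2 CPM in KO/GFP, 4.23 to 19.2 in KO/aYAP, 8.37 to 17.0 in WT/GFP and 8.93 to 15.6 in WT/aYAP. Between 2 and 5 markers were called with 1 library left out, with 2 left without KO/GFP replicate 1, and none of the markers was abundant enough to be tested when a level above 5 CPM was asked for in 8 or more libraries. The defining markers Ly6g, Camp and Cxcr2 are not listed in the table.

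The inflammatory list, of NF-kB and acute phase genes, had 9 of 24 tested members called (37.5%, against 7.56% of all tested genes), with a median of -0.61. Cxcl12 was the positive call, and the 8 negative calls were C3, Cebpd, Ccl2, Ccl6, Icam1, Vcam1, Osmr and Socs3. Ccl2, a monocyte chemokine, had means of 9.64 ± 3.06, 2.299 ± 0.815, 2.13 ± 0.926 and 1.53 ± 0.308 CPM (SD, n = 4) in KO/GFP, KO/aYAP, WT/GFP and WT/aYAP and an interaction of -1.41 (SE 0.36, limma adjusted p = 0.0275). Icam1, an endothelial adhesion molecule for leukocytes, had an interaction of -0.97 (SE 0.25, limma adjusted p = 0.0268). Stat3, the most abundant member and a mediator of IL-6 family signals, was at -0.24 and was not called. The count depended on KO/GFP replicate 1, without which 2 were called, and it was 11 without KO/GFP replicate 2. Of 35 interferon-stimulated genes, limma, edgeR and DESeq2 each called 0, with 4 at an unadjusted limma p under 0.05, and the list median of -0.11 had no stable sign, being 0.005 with equal sums and -0.43 to 0.126 with 1 library left out. Without WT/GFP replicate 1 limma called 3. The part of the neutrophil and macrophage marker levels in the inflammatory genes was not tested.

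Genes known to respond to glucocorticoids held the largest share of negative calls among the pathway lists, 10 of 22 (45.5%, against 7.56% of all tested genes), with none positive and a median of -1.18. In all 10, the 4 KO/GFP values lay above the other 12 libraries, as in 50.2% of all negative calls and 3.19% of all tested genes. A high KO/GFP itself makes the interaction negative, so this comes in part from the choice of called genes. They were Fkbp5, a co-chaperone of the glucocorticoid receptor, Klf15, a Krüppel-like factor of muscle metabolism, the metallothioneins Mt1 and Mt2, Hif3a, Pik3r1, Sult1a1, Glul, Fam107a and Cebpd, from -3.31 to -0.92. Hif3a, a hypoxia-inducible factor subunit (chromosome 7, 17031507 to 17062427, ENSMUSG00000004328), was at 52.9, 12.3, 5.91 and 72.2 CPM in KO/GFP replicates 1 to 4, 1.69, 1.29, 1.09 and 1.37 in KO/aYAP, 1.79, 0.781, 2.45 and 2.14 in WT/GFP, with 2.15, 0.663, 1.72 and 2.03 in WT/aYAP. The KO/GFP libraries themselves differed by over 10 times, with replicates 1 and 4 highest, and the interaction was -3.31 (SE 0.76, limma adjusted p = 0.0166). Klf15 was at 44.9, 18.6, 36.5 and 57.0 CPM in KO/GFP replicates 1 to 4, 12.9, 9.70, 10.3 and 18.5 in KO/aYAP, 7.35, 4.57, 12.9 and 9.09 in WT/GFP, with 10.3, 11.04, 9.44 and 11.5 in WT/aYAP, an interaction of -1.83 (SE 0.43, limma adjusted p = 0.0183). Sult1a1, a sulfotransferase, and Cebpd, a C/EBP factor, had interactions of -1.49 (SE 0.32, limma adjusted p = 0.0127) and -1.51 (SE 0.33, limma adjusted p = 0.0131). Glul, glutamine synthetase and the most abundant member, was at -0.92 (SE 0.26, limma adjusted p = 0.0418) and was called in 3 of the 16 fits without 1 library. Between 9 and 12 members were called with 1 library left out.

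Mt1 and Mt2 encode metallothioneins, small metal-binding proteins, and lie next to each other on chromosome 8. Mt2 was at 52.0, 25.5, 36.4 and 54.0 CPM in KO/GFP replicates 1 to 4, 5.81, 6.08, 2.17 and 3.43 in KO/aYAP, 10.3, 6.19, 5.22 and 3.18 in WT/GFP, with 2.96, 8.20, 6.51 and 11.1 in WT/aYAP. KO/GFP lay above all other libraries, which overlapped, and the interaction was -3.18 (SE 0.51, limma adjusted p = 0.00204). Mt1 had means of 148 ± 24.8, 53.6 ± 15.1, 52.2 ± 10.9 and 58.0 ± 14.7 CPM (SD, n = 4) in KO/GFP, KO/aYAP, WT/GFP and WT/aYAP and an interaction of -1.62 (SE 0.30, limma adjusted p = 0.00479). Because this pair moved together, their promoters are shown, 250 bases before to 50 bases after the RefSeq start site on GRCm38.p6, plus strand, with the letters TGCACNC or TGCGCNC on either strand in capitals, the core of the metal response element. The Mt1 window is chr8:94178839-94179138 and the Mt2 window chr8:94172368-94172667.
Mt1: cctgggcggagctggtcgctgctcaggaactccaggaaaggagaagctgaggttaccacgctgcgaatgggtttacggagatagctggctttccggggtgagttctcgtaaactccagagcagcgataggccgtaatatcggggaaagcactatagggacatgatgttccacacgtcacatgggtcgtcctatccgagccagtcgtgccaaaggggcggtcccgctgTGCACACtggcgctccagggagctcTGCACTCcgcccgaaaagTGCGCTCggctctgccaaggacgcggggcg
Mt2: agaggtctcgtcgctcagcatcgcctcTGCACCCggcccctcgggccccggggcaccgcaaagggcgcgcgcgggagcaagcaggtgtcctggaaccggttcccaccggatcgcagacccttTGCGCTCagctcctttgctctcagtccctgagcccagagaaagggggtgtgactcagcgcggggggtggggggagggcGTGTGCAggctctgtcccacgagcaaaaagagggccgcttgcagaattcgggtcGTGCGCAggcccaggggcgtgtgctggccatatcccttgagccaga
The Mt1 window held 3 matches and the Mt2 window 4. The letters are common, being present in 28.2% of the 27025 genes with a promoter window in the table. Of tested genes that had a window, they were present in 12 of 19 glucocorticoid-list genes (63.2%) and 16 of 42 mitotic genes (38.1%). No match overlapped the other motif letters searched here in the windows shown.

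Of 17 tested PPAR and fasting-responsive genes 5 were called (29.4%, against 7.56% of all tested genes), all negative, with a median of -0.41. Acot1, an acyl-CoA thioesterase with close paralogs, had means of 106 ± 54.2, 42.2 ± 9.47, 33.4 ± 4.93 and 45.7 ± 9.75 CPM (SD, n = 4) in KO/GFP, KO/aYAP, WT/GFP and WT/aYAP and an interaction of -1.62 (SE 0.40, limma adjusted p = 0.0245). Plin2, a lipid droplet coat protein, was at -0.76, called in 8 of the 16 fits without 1 library, and Pnpla2, a triglyceride lipase, at -0.79. Klf15 is in this list too. Without KO/GFP replicate 1, 1 member of the list was called, and without KO/GFP replicate 2, 7 were. In fatty acid uptake and beta-oxidation 3 of 26 were called (11.5%), all negative, with a median of -0.28, among them the fatty acid transporter Slc27a1 (-1.02, SE 0.15, limma adjusted p = 0.0015), and 1 to 6 with 1 library left out, fewest without KO/GFP replicate 1 and most without KO/GFP replicate 2. In this list 11 members had all 4 KO/GFP values outside the other libraries, as did 6.43% of all tested genes. Of 42 nuclear respiratory chain subunits limma and edgeR called 0 and DESeq2 1, 1 had an unadjusted limma p under 0.05, and their values ranged from -0.35 to 0.40. In glucose uptake and glycolysis 2 of 25 were called (8.0%, near the 7.56% of all tested genes), Slc2a1 (GLUT1) at -0.79 and Pfkfb1 at -1.24. Slc2a1 was called in 4 of the 16 fits without 1 library and Pfkfb1 in all 16, and the list had 1 to 4 calls in those fits. With libraries scaled to equal sums, the median of -0.09 turned to 0.030 and the calls of this list to 2 positive and 1 negative.

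Sterol and fatty acid synthesis genes divided. Of 25 tested, 8 were called (32.0%, against 7.56% of all tested genes), 5 positive and 3 negative. The positive calls included Msmo1, of sterol synthesis (1.06), Stard4, a sterol carrier (1.03), Srebf2, the SREBP of sterol synthesis (0.54), and the desaturase Fads2 (0.92). The negative calls were Srebf1, the SREBP of fatty acid synthesis (-0.75, SE 0.15, limma adjusted p = 0.00889), Fasn, fatty acid synthase (-0.93), and the desaturase Scd2 (-0.85). Scd2 had means of 106 ± 7.25, 68.7 ± 5.98, 102 ± 20.5 and 119 ± 14.9 CPM (SD, n = 4) in KO/GFP, KO/aYAP, WT/GFP and WT/aYAP, with KO/aYAP the lowest group. The list had 4 calls without KO/aYAP replicate 1 and 10 without WT/aYAP replicate 1.

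Imprinted and growth-axis genes, many of which are high in the fetal and newborn heart, had 6 of 22 called (27.3%, against 7.56% of all tested genes), all negative, with a median of -0.50. Peg3, a paternally expressed zinc finger gene (chromosome 7, 6703892 to 6730431, ENSMUSG00000002265), was at 298, 207, 199.2 and 347.6 CPM in KO/GFP replicates 1 to 4, 173, 136, 92.5 and 102 in KO/aYAP, 101, 110.3, 111 and 120.1 in WT/GFP, with 130.2, 146, 129 and 145 in WT/aYAP. All KO/GFP libraries were above the rest, and the interaction was -1.37 (SE 0.26, limma adjusted p = 0.00584). Zim1, its neighbour, had means of 10.4 ± 4.75, 4.53 ± 1.49, 1.91 ± 0.636 and 4.58 ± 0.982 CPM (SD, n = 4) in KO/GFP, KO/aYAP, WT/GFP and WT/aYAP and an interaction of -1.94 (SE 0.39, limma adjusted p = 0.00763). Plagl1, a zinc finger factor, was at -1.35, the noncoding RNA H19 at -1.67, the IGF-binding protein Igfbp3 at -1.95 and the receptor Igf1r at -0.50. H19 was called in 7 and Igfbp3 in 3 of the 16 fits without 1 library, and the list had 3 calls without KO/GFP replicate 1.

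**Figure D5:**
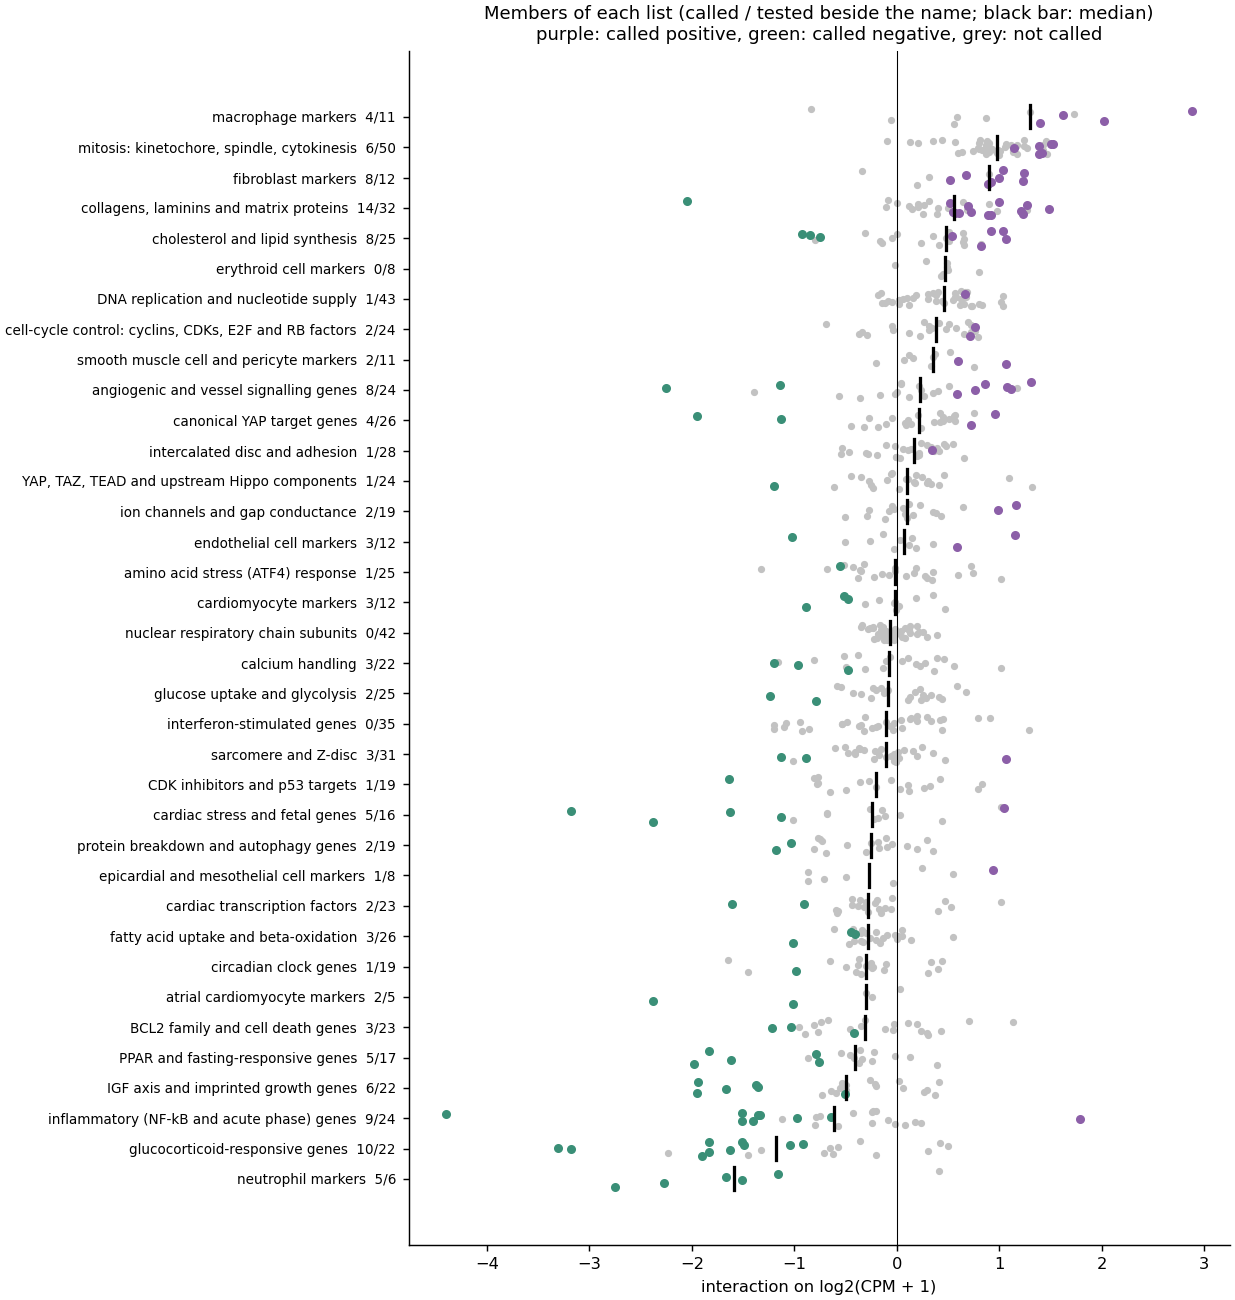
Each point is a tested gene of a list with at least 5 tested members, placed by its interaction on log2(CPM + 1), with called positive genes in purple, called negative genes in green and the others in grey, and the black bar is the list median. Macrophage markers have the highest median at 1.3 and neutrophil markers the lowest at -1.59.

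Of 31 sarcomere and Z-disc genes 3 were called (9.68%, against 7.56% of all tested genes), with a median of -0.11 that turned to 0.011 under scaling to equal sums. Tnnt2, cardiac troponin T (chromosome 1, 135836354 to 135852260, ENSMUSG00000026414), was at 9924, 10951, 9829 and 9953 CPM in KO/GFP replicates 1 to 4, 6587, 6324, 6632 and 6987 in KO/aYAP, 6223, 5690.4, 7776 and 6414 in WT/GFP, with 7504, 7864, 7558 and 8335 in WT/aYAP. KO/GFP lay above the other libraries, and the interaction was -0.88 (SE 0.16, limma adjusted p = 0.0036). Tnni1, the fetal slow skeletal troponin I, had an interaction of -1.14 (SE 0.21, limma adjusted p = 0.00436), and Acta2, smooth muscle actin, of 1.07 (SE 0.27, limma adjusted p = 0.025). Myh7, the fetal beta-myosin heavy chain, had means of 2683 ± 1356, 1231 ± 74.9, 1398 ± 126.6 and 1437 ± 170.4 CPM (SD, n = 4) in KO/GFP, KO/aYAP, WT/GFP and WT/aYAP and was not called at -1.01 (SE 0.36, limma adjusted p = 0.0945). Nppa, atrial natriuretic peptide, a marker of wall stress (chromosome 4, 148000722 to 148002079, ENSMUSG00000041616), was at 266, 417, 381 and 198.6 CPM in KO/GFP replicates 1 to 4, 28.1, 65.7, 163 and 76.9 in KO/aYAP, 302, 172, 87.8 and 113 in WT/GFP, with 181, 169, 159 and 231 in WT/aYAP. KO/GFP and WT/GFP overlapped, KO/aYAP had the lowest library, and the interaction was -2.38 (SE 0.60, limma adjusted p = 0.0262), lost in 2 of the 16 fits without 1 library. In the list of cardiac stress and fetal genes, which also holds Mt1, Mt2, Tnni1 and Nppa, 5 of 16 were called (31.2%), 1 positive and 4 negative. Of 12 cardiomyocyte markers 3 were called (25.0%), Tnnt2, Pln (phospholamban, -0.47) and Ckm (muscle creatine kinase, -0.52).

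Among calcium handling genes, 3 of 22 were called (13.6%, against 7.56% of all tested genes), all negative, and the list median of -0.08 turned to 0.033 under scaling to equal sums. Cacna1c, the L-type calcium channel, had means of 404 ± 50.5, 276 ± 30.4, 236 ± 56.6 and 309.7 ± 30.5 CPM (SD, n = 4) in KO/GFP, KO/aYAP, WT/GFP and WT/aYAP and an interaction of -0.97 (SE 0.21, limma adjusted p = 0.0124). Cacna1h, a T-type channel of the fetal heart, was at -1.20 (SE 0.23, limma adjusted p = 0.00673), and Pln was the third, called in 4 of the 16 fits without 1 library. Atp2a2, the SERCA pump, was not called at 0.37. Of 19 ion channel genes 2 were called (10.5%), both positive, the pacemaker channel Hcn2 (1.17, SE 0.24, limma adjusted p = 0.00893) and the potassium channel Kcnd2 (0.99), which was called in 4 of the 16 fits. Irx4 and Irx3, of the ventricular and conduction-system Iroquois factors, were the called members among 23 cardiac transcription factors (8.7%, near the 7.56% of all tested genes), at -0.91 (SE 0.16, limma adjusted p = 0.00397) and -1.61 (SE 0.40, limma adjusted p = 0.0246). Tbx20, the most abundant of these, was at 0.41 and was not called. With 1 library left out, 1 to 4 of the cardiac transcription factors were called, most without KO/GFP replicate 3.

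Cell-cycle genes shared a direction more than they passed the test. In the list of mitotic genes (kinetochore, spindle and cytokinesis) 49 of 50 values were positive, with a median of 0.98, against 51.6% of all tested genes, and 6 were called (12%, against 7.56% of all tested genes), all positive. Hmmr, a spindle protein (chromosome 11, 40701395 to 40733422, ENSMUSG00000020330), was at 7.26, 17.3, 11.9 and 4.19 CPM in KO/GFP replicates 1 to 4, 21.6, 24.4, 26.2 and 23.3 in KO/aYAP, 30.3, 35.3, 28.2 and 31.2 in WT/GFP, with 26.6, 27.2, 29.1 and 24.3 in WT/aYAP. KO/GFP was below the rest, with replicate 2 highest and replicate 4 lowest in the group, and the interaction was 1.52 (SE 0.36, limma adjusted p = 0.0204). The other calls were Prc1, of the central spindle (1.39, SE 0.35, limma adjusted p = 0.0276), Ckap2l, of the spindle (1.5, SE 0.40, limma adjusted p = 0.0342), Cenpf, of the kinetochore (1.15, SE 0.30, limma adjusted p = 0.0306), the kinase Aurka (1.42) and the APC activator Cdc20 (1.38). Ckap2l was called in 5 and Cenpf in 7 of the 16 fits without 1 library. Mki67, the proliferation marker Ki-67, had means of 82.4 ± 55.5, 143 ± 10.8, 175 ± 19.9 and 168 ± 27.5 CPM (SD, n = 4) in KO/GFP, KO/aYAP, WT/GFP and WT/aYAP and was not called at 1.17 (SE 0.54, limma adjusted p = 0.202). The count rested on single libraries. It was 35 of 50 without KO/GFP replicate 2, the library with the highest Hmmr of its group, and 1 without WT/GFP replicate 2, while the median stayed between 0.647 and 1.31. KO/GFP replicate 2 was also the only library of its group high in Xist alone (867 CPM, with 0.588 of Ddx3y). The count was 4 with Ddx3y as a covariate. It was 15 with libraries scaled to equal sums, 13 with 1 variance weight per group, 3 with edgeR and 9 with DESeq2.

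Because 49 of the 50 mitotic values share a sign, the last 70 bases before and the 50 bases after the RefSeq start site are shown for the 4 called genes with the smallest p-values, each 5′ to 3′ on the strand of its gene, on GRCm38.p6. Capitals mark the letters TTTGAA on either strand, the core of the cell-cycle homology region that represses many mitotic genes outside G2 and M. The windows are chr11:40733388-40733507 (minus strand) for Hmmr, chr7:80294381-80294500 (plus) for Prc1, chr1:189688037-189688156 (minus) for Cenpf and chr2:129297163-129297282 (minus) for Ckap2l.
Hmmr: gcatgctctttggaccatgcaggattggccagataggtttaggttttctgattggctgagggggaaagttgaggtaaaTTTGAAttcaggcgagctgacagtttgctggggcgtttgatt
Prc1: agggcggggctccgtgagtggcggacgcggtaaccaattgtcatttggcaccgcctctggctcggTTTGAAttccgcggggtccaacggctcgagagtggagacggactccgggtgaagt
Cenpf: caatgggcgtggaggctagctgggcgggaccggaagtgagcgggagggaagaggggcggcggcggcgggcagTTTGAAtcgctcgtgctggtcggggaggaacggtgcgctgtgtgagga
Ckap2l: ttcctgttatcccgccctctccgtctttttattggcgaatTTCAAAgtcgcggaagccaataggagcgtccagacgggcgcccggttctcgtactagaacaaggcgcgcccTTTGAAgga
In windows of 300 bases, TTTGAA was present in all 6 called mitotic genes and in 29 of the 42 tested mitotic genes that had a window (69.0%). Among all 27025 genes with a window in the table it was present in 20.2%. GGAATG, the core of TEAD sites, searched on both strands as well, was present in 5 of the 42 (11.9%) and in 16.6% of all genes. A match is a description of the letters and does not show that a factor binds there.

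DNA replication genes had 1 call of 43 (2.33%, against 7.56% of all tested genes), Slbp, the histone mRNA stem-loop binding protein (0.67, SE 0.17, limma adjusted p = 0.0309), with 37 positive values and a median of 0.46. Slbp was called in 9 of the 16 fits without 1 library, and the list had from 0 calls, without KO/aYAP replicate 1, to 8, without KO/GFP replicate 3. Pcna, the polymerase clamp, was at 0.44 and was not called. Of 24 cyclins, CDKs, E2F and RB factors, Ccnd2 (cyclin D2) and Lin9, of the MuvB complex, were called (8.33%, near the 7.56% of all tested genes). Ccnd2 had means of 183 ± 28.2, 288 ± 34.8, 284 ± 24.7 and 274 ± 14.7 CPM (SD, n = 4) in KO/GFP, KO/aYAP, WT/GFP and WT/aYAP and an interaction of 0.71 (SE 0.16, limma adjusted p = 0.014), called in all 16 fits without 1 library, and Lin9 was at 0.76 (SE 0.22, limma adjusted p = 0.0445), called in 4. Among 19 CDK inhibitors and p53 targets, Trp53inp1 was called (5.26% of the list, under that share), at -1.64 (SE 0.36, limma adjusted p = 0.014). DESeq2 called 3 of these 19. With 1 library left out, limma called 1 to 5 of them, and 1 to 4 of the cyclins, CDKs, E2F and RB factors.

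Yap1, the mouse gene, had means of 89.0 ± 5.07, 87.2 ± 4.58, 87.7 ± 2.76 and 84.5 ± 2.84 CPM (SD, n = 4) in KO/GFP, KO/aYAP, WT/GFP and WT/aYAP and an interaction of 0.02 (SE 0.10, limma adjusted p = 0.918). Whether reads of the human transgene count at mouse Yap1 was not tested. Wwtr1, which encodes TAZ, was at -0.24, and Xirp1, the other Xin family gene, at 0.03. Neither they nor Yap1 were called. Of 24 tested components from YAP to the upstream kinases, 1 was called (4.17%, against 7.56% of all tested genes), namely Tead3, a TEAD factor (chromosome 17, 28331671 to 28350817, ENSMUSG00000002249). It was at 42.0, 38.5, 33.5 and 44.8 CPM in KO/GFP replicates 1 to 4, 20.1, 22.1, 26.2 and 23.9 in KO/aYAP, 19.8, 15.7, 20.9 and 19.2 in WT/GFP, with 20.6, 25.8, 26.2 and 32.2 in WT/aYAP. KO/GFP lay above all other libraries, and the interaction was -1.20 (SE 0.19, limma adjusted p = 0.00195), called in all 16 fits without 1 library.

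Canonical YAP targets had 4 of 26 called (15.4%, against 7.56% of all tested genes), 2 in each direction, and a median of 0.22. Scaling to equal sums gave 3 positive and 0 negative calls, and the replicate block 2 and 0, so the even split depends on the setting. Axl, a receptor tyrosine kinase (chromosome 7, 25757273 to 25788705, ENSMUSG00000002602), was at 84.2, 60.02, 79.1 and 87.9 CPM in KO/GFP replicates 1 to 4, 114, 116, 116 and 128 in KO/aYAP, 109.8, 105, 115 and 116 in WT/GFP, with 103, 103, 105 and 102 in WT/aYAP. KO/GFP was lowest without overlap, and the interaction was 0.73 (SE 0.14, limma adjusted p = 0.00578). Tnfrsf12a, the TWEAK receptor, was also positive at 0.95 (SE 0.28, limma adjusted p = 0.0486), called in 5 of the 16 fits without 1 library. Nt5e, the ecto-nucleotidase CD73, at -1.13 (SE 0.30, limma adjusted p = 0.0352), and Igfbp3 were negative, called in 6 and 3 of those fits. Ankrd1, a cardiac ankyrin repeat protein and the most abundant member, had means of 557 ± 36.5, 796 ± 383.3, 569.8 ± 40.5 and 852 ± 109 CPM (SD, n = 4) in KO/GFP, KO/aYAP, WT/GFP and WT/aYAP, and its interaction was -0.18 (SE 0.32, limma adjusted p = 0.78). Its KO/aYAP libraries were split, with replicates 1 and 2, at 484 and 502 CPM, below all KO/GFP libraries and replicates 3 and 4, at 1291 and 905, above them. Between 1 and 6 members were called with 1 library left out, 1 without KO/GFP replicate 1 and 6 without KO/GFP replicate 2. Of 28 intercalated disc and adhesion genes, Tln1, or talin, was called (3.57% of the list, under that share) at 0.34 (SE 0.10, limma adjusted p = 0.0452), in 4 of the 16 fits, and Dsp, desmoplakin, the most abundant member, was at -0.29 and was not.

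Vessel signalling genes had 8 of 24 called (33.3%, against 7.56% of all tested genes), 6 positive and 2 negative, and a median of 0.23. Unc5b, a netrin receptor of endothelium, had means of 33.7 ± 4.06, 71.7 ± 13.4, 79.0 ± 14.7 and 65.2 ± 3.03 CPM (SD, n = 4) in KO/GFP, KO/aYAP, WT/GFP and WT/aYAP and an interaction of 1.31 (SE 0.20, limma adjusted p = 0.0015). Kdr, the main VEGF receptor, was at 0.58 (SE 0.11, limma adjusted p = 0.00508), with Aplnr (1.07), Hey1 (1.11), Nrp2 (0.86) and Jag1 (0.76) also positive. Hey2, a Notch-responsive repressor of ventricular muscle and arteries, was negative at -2.25 (SE 0.40, limma adjusted p = 0.0037), as was Pgf, placental growth factor, at -1.14 (SE 0.23, limma adjusted p = 0.00949). Of 12 endothelial markers 3 were called (25.0%), of which Kdr and Aqp1, a water channel (1.15), were positive and Fabp4, a fatty acid carrier (-1.03), negative. The 12 endothelial markers summed to between 2713 and 3338 CPM in KO/GFP and between 2732 and 3441 in the other groups. Acta2 and Rgs5, a pericyte gene (0.60), were called among 11 smooth muscle cell and pericyte markers (18.2%), and Aldh1a2 (0.94, in 4 of the 16 fits) among 8 of epicardium (12.5%), while of 8 erythroid markers limma, edgeR and DESeq2 each called 0, with 0 at an unadjusted limma p under 0.05.

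Of the remaining lists, BCL2 family and cell death genes had 3 of 23 called, all negative. These were Bnip3, a mitophagy receptor (-1.04, SE 0.21, limma adjusted p = 0.00778), Bcl2l11, a pro-apoptotic BH3 protein (-1.22), and Mcl1, an anti-apoptotic one (-0.42), the last called in 2 and Bcl2l11 in 8 of the 16 fits without 1 library. Fbxo31, an F-box protein, was called with Bnip3 among 19 protein breakdown genes, at -1.18 (SE 0.24, limma adjusted p = 0.00882). The clock repressor Per2 was 1 of 19 clock genes called, at -0.99, and Eif4ebp1, a translation repressor, 1 of 25 ATF4 response genes, at -0.55, called in 9 and 8 of those fits. The shares called in these 4 lists, from 4.0% to 13.0%, lie on either side of the 7.56% of all tested genes. With 1 library left out, 1 to 5 cell death and 2 to 5 protein breakdown genes were called. In those fits 0 to 1 clock and 0 to 3 ATF4 response genes were called.

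In the remaining called genes a group other than KO/GFP was farthest. In mt-Tw, the mitochondrial tryptophan tRNA (mitochondrial genome, 4950 to 5016), KO/aYAP was the farthest group. It was at 22.2, 30.5, 25.3 and 20.6 CPM in KO/GFP replicates 1 to 4, 10.7, 11.1, 9.95 and 9.55 in KO/aYAP, 13.1, 12.9, 19.9 and 14.5 in WT/GFP, with 17.6, 21.1, 26.6 and 22.5 in WT/aYAP. KO/aYAP lay below all other libraries while KO/GFP overlapped WT/aYAP, and the interaction was -1.68 (SE 0.22, limma adjusted p = 0.000436). Values of short mitochondrial tRNAs in a polyA library are uncertain. The proline tRNA mt-Tp was at -1.10, the ATPase inhibitor Atpif1 at -0.70 and the malic enzyme Me3 at 0.73. WT/GFP was farthest in Cdv3, a gene of unclear function, at 77.5, 67.3, 79.6 and 76.3 CPM in KO/GFP replicates 1 to 4, 104, 98.2, 85.3 and 113 in KO/aYAP, 102, 126.6, 106 and 123 in WT/GFP, with 84.9, 85.9, 77.1 and 73.2 in WT/aYAP. There WT/GFP overlapped KO/aYAP, and KO/GFP overlapped WT/aYAP, with an interaction of 0.91 (SE 0.14, limma adjusted p = 0.00173). Fgfbp3, an FGF-binding protein, was at -1.01, Lrrfip2 at -0.70 and Lpcat1, a lysophospholipid acyltransferase, at 2.20. WT/aYAP was farthest in Myl4, the atrial and fetal myosin light chain (chromosome 11, 104550663 to 104595753, ENSMUSG00000061086), which was at 9.25, 7.26, 6.55 and 10.4 CPM in KO/GFP replicates 1 to 4, 6.60, 6.84, 9.09 and 8.12 in KO/aYAP, 7.65, 9.54, 6.96 and 9.04 in WT/GFP, with 14.5, 16.3, 16.7 and 18.0 in WT/aYAP. The 4 WT/aYAP libraries lay above the other 12, and the interaction was -1.01 (SE 0.21, limma adjusted p = 0.010). Mtfp1, a mitochondrial fission protein (1.08), and Hexdc, a hexosaminidase (-0.73), were of this kind too.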

How the data were processed

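RNA of injected mouse hearts at postnatal day 7.5 was sequenced as strand-specific polyA libraries with 150 bp paired-end reads, 4 libraries in each of 4 groups named by the labels. Per the submitters' processing notes and methods, the authors used cutadapt 2.3, FastQC, HISAT2 2.1.0, StringTie 1.3.4, edgeR 3.26.1 and GRCm38. The deposited signal values are the authors' CPM on scaled library sizes: columns summed to 951561 to 1134439, and 99.96% to 99.99% of values were whole multiples (within 0.05 read) of the worth of 1 read, 0.0539 to 0.0656 CPM. CPM had been planned for, and the same limma test served. The whole reads so recovered, 15015038 to 19444404 per library, entered the edgeR and DESeq2 alternatives. Intervals of counting were not needed, and depth limits genes near 1 CPM most.

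In R 4.3.3, limma 3.58.1 with a mean-variance trend was fitted to log2(CPM + 1) of genes above 1 CPM in 8 or more libraries, with a mean per group, and p-values were adjusted by the Benjamini-Hochberg method over all tested genes. The study's methods name Fisher's exact test between 2 groups, which has no interaction term. The scripts were tested on simulated data. Alternatives used edgeR 4.0.16, DESeq2 1.42.0, other scalings, filters, a pseudocount of 0.1, other variance models, Ddx3y as a covariate, the replicate number as a block, and leaving out each library; leaving out 4 libraries with both Xist and Ddx3y was added after seeing the data. No 2 libraries of a group agreed within sampling noise. The labels give separate samples but not the animals behind them, so p-values measure the spread between these samples.

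Named genes were the 12 with the smallest p in each direction, the 6 largest values in each direction with a mean of at least 5 CPM, up to 4 per other farthest group, up to 4 called members of each list with its most abundant member, and Xirp2, Xirp1, Yap1, Wwtr1 and sex-linked genes. Predicted genes were passed over. A few genes named by this rule are not reported here. Other called members that complete a list were named after their values were seen. The genes and lists were chosen with earlier results of these data known. Symbols and positions came from GENCODE M21 on GRCm38 (15320 of 15327 IDs matched), promoters from RefSeq on GRCm38.p6. Figures and counts used Python 3.11.15, numpy 2.4.6, pandas 2.3.3 and matplotlib 3.10.9. The table of 8 uninjected hearts was not used here.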

Additional observations from a re-analysis of the deposited data

Results flagged for a closer look

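The genes called for the interaction were 1104 in all, with 554 positive and 550 negative. Each was called by a test of the interaction term itself. At an adjusted p under 0.05, some of the calls are likely to be false. A single library lay far from the other 3 of its group in 3 of the 104 sets of 4 libraries examined (25 genes whose values are given by library, and the depth), where chance gives about 1 in 20. Cx3cr1 was at 17.21 CPM in WT/GFP replicate 1 and at 9.24 to 10.2 in the other 3. Hmcn2 was at 23.27 CPM in WT/aYAP replicate 1 and at 31.18 to 31.77 in the others. Tnnt2 was at 10950 CPM in KO/GFP replicate 2 and at 9829 to 9953 in the others.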

How the results depend on the processing

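The called number kept within 1.5 times of 1104 under 12 of the other settings, from 911 to 1545, and no called gene changed sign in any setting. Requiring an interaction of at least 1 left 453 calls, 1.42% of tested genes positive and 1.69% negative. Scaling to equal sums gave 884 positive (6.06% of tested genes) and 345 negative calls (2.36%). With 1 library left out, the calls ranged from 625 to 1467, the positive calls from 2.08% to 5.19% of tested genes, the negative calls from 2.09% to 4.91%, the calls in which KO/GFP was farthest from 539 to 1247, and the genes in which KO/GFP stood apart from 953 to 1830. Without the 4 libraries high in both Xist and Ddx3y, 28 genes were called, 23 positive (0.162%) and 5 negative (0.0352%), with KO/GFP farthest in 24. Fewer samples were fitted in both kinds of setting. The replicate block gave 707 calls, 2.36% of tested genes positive and 2.49% negative, of which 694 were among the 1104. Same-numbered libraries did not deviate together (correlations from -0.171 to 0.137, 1 of 24 over 0.1). This gave no sign that the numbers pair them, but such correlations cannot settle it. The cause of the lower count was not tested. KO/GFP was farthest in 78.0% to 85.9% of the calls in every fit to all libraries. This was not counted for the calls of at least 1 in size. Of 128 called genes named in the text with a value, 85 kept their call in every fit without 1 library that tested them. In the other settings that tested them 94 did so, and 84 did so in both. Aldh1l1 was tested in only 8 of the 16 fits, and the filter above 5 CPM left some genes untested. Without the 4 libraries, 16 stayed called, 111 did not and 1 was too low to be tested. Among genes not called, Xirp1 turned from 0.03 to 0.00 with edgeR and with DESeq2, to -0.20 without the 4 libraries, and ranged from -0.09 to 0.12 with 1 library left out. Yap1 ranged from -0.01 to 0.05 and Ankrd1 from -0.45 to 0.02 in the same fits. Depth limits genes near 1 CPM, such as Cx3cr1 in KO/GFP, where the pseudocount shrinks the value.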
